A study of Mus musculus with 8 samples.

Results

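Germline genes are genes whose main activity is in germ cells, and 10 of them were followed here in mouse embryonic stem cells: Ddx4, Dazl, Tex19.1, Mael, Sycp1, Sycp3, Stk31, Tdrd1, Tex101 and Dppa3. They were found by symbol, from probe sets annotated with exactly 1 of these names, and 10 of 10 were measured, among 18193 genes in all. They had 12 probe sets, since Dazl and Stk31 had 2 each. The cells were of the line NG4, labelled as embryonic stem cells, and were reverse transfected with small interfering RNA (siRNA), in which cells are plated onto the transfection mix. The siSox2 group received siRNA against Sox2, a transcription factor of the pluripotency network. The siPsmd14 group received siRNA against Psmd14, a deubiquitinase of the proteasome lid, and the siDdb1 group siRNA against Ddb1, the adaptor of CUL4 ubiquitin ligases. The siNonTarget group received a non-targeting siRNA. All groups were collected 48 h after transfection, with 2 arrays in each group and 8 in all. All arrays carried RNA from the 1 cell line, and 5 ng of total RNA was amplified for each. Nothing in the labels says whether the 2 arrays of a group came from separate cultures, so each p-value is set against a spread that may be technical.

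As background, germ cells carry genes that other cells keep silent. Many of these genes have promoters rich in CpG dinucleotides, and their silencing is known to involve DNA methylation and repressor complexes that hold E2F6 with MAX and MGA and bind E2F-like and E-box sequences. Embryonic stem cells express some germline genes at a measurable level while the silencing is incomplete, and knocking out these repressors in such cells is known to raise germline transcripts. The genes studied here act at several steps: in germ granules and the Piwi-interacting RNA (piRNA) pathway that restrains retrotransposons, in the synaptonemal complex that joins homologous chromosomes in meiosis, in the control of germ cell mRNAs, and in the early germ cell and oocyte.

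The values were Affymetrix intensities, given here as log2. A gene with several probe sets is represented by the one with the highest mean over the 8 arrays. The array medians lay between 4.77 and 4.85, and within a group a probe set's SD had a median of 0.102 for siSox2, 0.12 for siPsmd14, 0.109 for siDdb1 and 0.106 for siNonTarget. Sox2 stood at 12.10 and 11.84 in siSox2 arrays, against 12.23 and 12.47 in siNonTarget arrays (log2 fold change -0.38, limma adjusted p = 0.301). Psmd14 stood at 11.88 and 11.75 in siPsmd14 arrays, against 12.07 and 11.97 in siNonTarget arrays (-0.21, limma adjusted p = 0.522). Ddb1 stood at 9.67 and 10.73 in siDdb1 arrays, against 11.88 and 11.81 in siNonTarget arrays (-1.65, limma adjusted p = 0.147). Each targeted transcript was lower on both arrays of its own knockdown than on both control arrays, but none of these differences passed the test. Of all genes, 29.3% were likewise below both control arrays in siSox2 cells, 24.1% in siPsmd14 cells and 22.3% in siDdb1 cells. The 12 embryonic stem cell markers averaged 11.39 to 12.01 on the 8 arrays, and none of them averaged under an array median. The 12 fibroblast markers averaged 5.13 to 5.56 and the 9 markers of gonadal somatic cells 5.38 to 5.74.

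Promoter sequence is shown for Ddx4, Tex19.1, Mael and Sycp3, the 4 genes whose windows hold the E2F-like motif described here. RefSeq windows of the build GRCm38.p6 were found for 9 of 10 genes (12 windows, since Stk31 and Tdrd1 have more than 1), and none for Dppa3. The 250 bases upstream of each start in that table were searched on both strands for the E-box CACGTG, which reads the same on both strands, and for the E2F-like motif TCCCGC, which reads GCGGGA on the other strand. A table start need not be the outermost end of the gene: the windows of Ddx4, Stk31 and Tdrd1 reach into the gene spans given below, so they are upstream of the table's start only. The motifs do not overlap each other in these sequences. They are printed 5′ to 3′ on the gene's strand, ending at the base before the start, with both motifs in capitals.
Ddx4 (chr13:112652311-112652560, minus strand): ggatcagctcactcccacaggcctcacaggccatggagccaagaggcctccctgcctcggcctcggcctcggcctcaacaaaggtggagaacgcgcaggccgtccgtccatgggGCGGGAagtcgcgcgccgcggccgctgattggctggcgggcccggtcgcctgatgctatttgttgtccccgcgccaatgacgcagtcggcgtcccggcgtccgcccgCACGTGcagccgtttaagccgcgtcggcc
Tex19.1 (chr11:121145893-121146142, plus strand): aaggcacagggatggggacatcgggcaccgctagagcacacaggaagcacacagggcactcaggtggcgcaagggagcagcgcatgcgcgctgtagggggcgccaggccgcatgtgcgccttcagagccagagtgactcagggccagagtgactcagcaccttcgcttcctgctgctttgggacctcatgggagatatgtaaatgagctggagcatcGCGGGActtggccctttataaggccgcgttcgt
Mael (chr1:166238745-166238994, minus strand): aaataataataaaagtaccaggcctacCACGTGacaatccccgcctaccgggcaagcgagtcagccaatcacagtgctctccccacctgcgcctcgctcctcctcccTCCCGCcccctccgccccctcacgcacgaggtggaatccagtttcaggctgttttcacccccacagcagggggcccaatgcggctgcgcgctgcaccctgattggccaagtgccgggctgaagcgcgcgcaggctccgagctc
Sycp3 (chr10:88459337-88459586, plus strand): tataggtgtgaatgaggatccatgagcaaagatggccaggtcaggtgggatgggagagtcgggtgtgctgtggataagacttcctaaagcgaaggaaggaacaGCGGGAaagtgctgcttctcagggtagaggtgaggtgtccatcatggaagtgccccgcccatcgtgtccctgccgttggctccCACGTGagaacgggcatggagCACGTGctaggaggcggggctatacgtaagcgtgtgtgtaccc
In Ddx4 the E-box began 29 bases before the start and the E2F-like motif 136 bases before it. In Tex19.1 the E2F-like motif began 33 bases before the start. In Mael the E-box began 223 and the E2F-like motif 143 bases before the start. Sycp3 held E-boxes 64 and 43 bases before its start and the E2F-like motif at 147 bases.

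The E-box stood upstream of 6 of the 9 genes with a window (Ddx4, Mael, Sycp1, Sycp3, Stk31 and Tdrd1), against 6.86% of 27025 genes in the same table. The E2F-like motif stood upstream of 4 of 9 (Ddx4, Tex19.1, Mael and Sycp3), against 18.8% of all genes. Both motifs stood upstream of 3 of 9 (Ddx4, Mael and Sycp3), against 1.69% of all genes. A ratio of observed to expected CpG above 0.6 was found in at least 1 window of 9 of 9 genes, against 36.5% of all genes. The Ddx4 window had 31 CpG dinucleotides and a ratio of 1.0, the highest of the members, against a median ratio of 0.37 over all windows. The windows of Tex19.1, Sycp3 and Tex101 were near the limit, each at 0.64. Tdrd1 had windows at 0.53 and 0.25, under the limit, and another at 0.86. Dazl and Tex101 held neither motif in these windows. The genes were chosen as germline genes, so these shares are descriptions, and a match is not a binding site.

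Ddx4 and Tex19.1 were the germline genes that passed the test, each in 1 knockdown. Ddx4 rose in siSox2 cells and Tex19.1 rose in siPsmd14 cells, and both stood above the control arrays on every array of all 3 knockdowns. Both arrays lay above both control arrays for 23.3% of all genes in siSox2, 22.4% in siPsmd14 and 19.8% in siDdb1 cells. The share for all 3 knockdowns at once was not counted. Nor was the share of genes with both arrays of 1 group above all other arrays, as described below for Stk31, Sycp3 and Dazl. Mael, Sycp1 and Stk31 were highest in siSox2 cells, and Sycp3 and Dazl in siPsmd14 cells, none of them past the threshold. In siSox2 against siNonTarget, 1 of 10 genes rose and 0 fell, where 2.93% of all probe sets passed in either direction. In siPsmd14 against siNonTarget 1 of 10 rose and 0 fell, where 1.35% of all probe sets passed. In siDdb1 against siNonTarget 0 of 10 passed, where 0.0266% of all probe sets passed. By 1 probe set per gene, as the 10 are counted, 512 of 18193 genes rose and 266 fell in siSox2 cells. The same counts were 309 and 34 in siPsmd14 cells, and 8 and 0 in siDdb1 cells. An unadjusted limma p under 0.05 was reached by 5 of the 10 genes in siSox2 cells, where 15% of all probe sets had one, and by 4 in siPsmd14 cells, where 14.5% had one. In siDdb1 cells it was reached by 2, Ddx4 and Tex19.1, where 8.04% of all probe sets had one. A gene passed with a limma p adjusted by Benjamini-Hochberg over 45037 probe sets below 0.05, and all adjusted p-values below are of this kind. With 10 genes, a single call is 10 percent of them, so these counts read little beyond the named genes. The 3 knockdowns share the 2 siNonTarget arrays, so their values are given side by side.

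**Figure D1:**
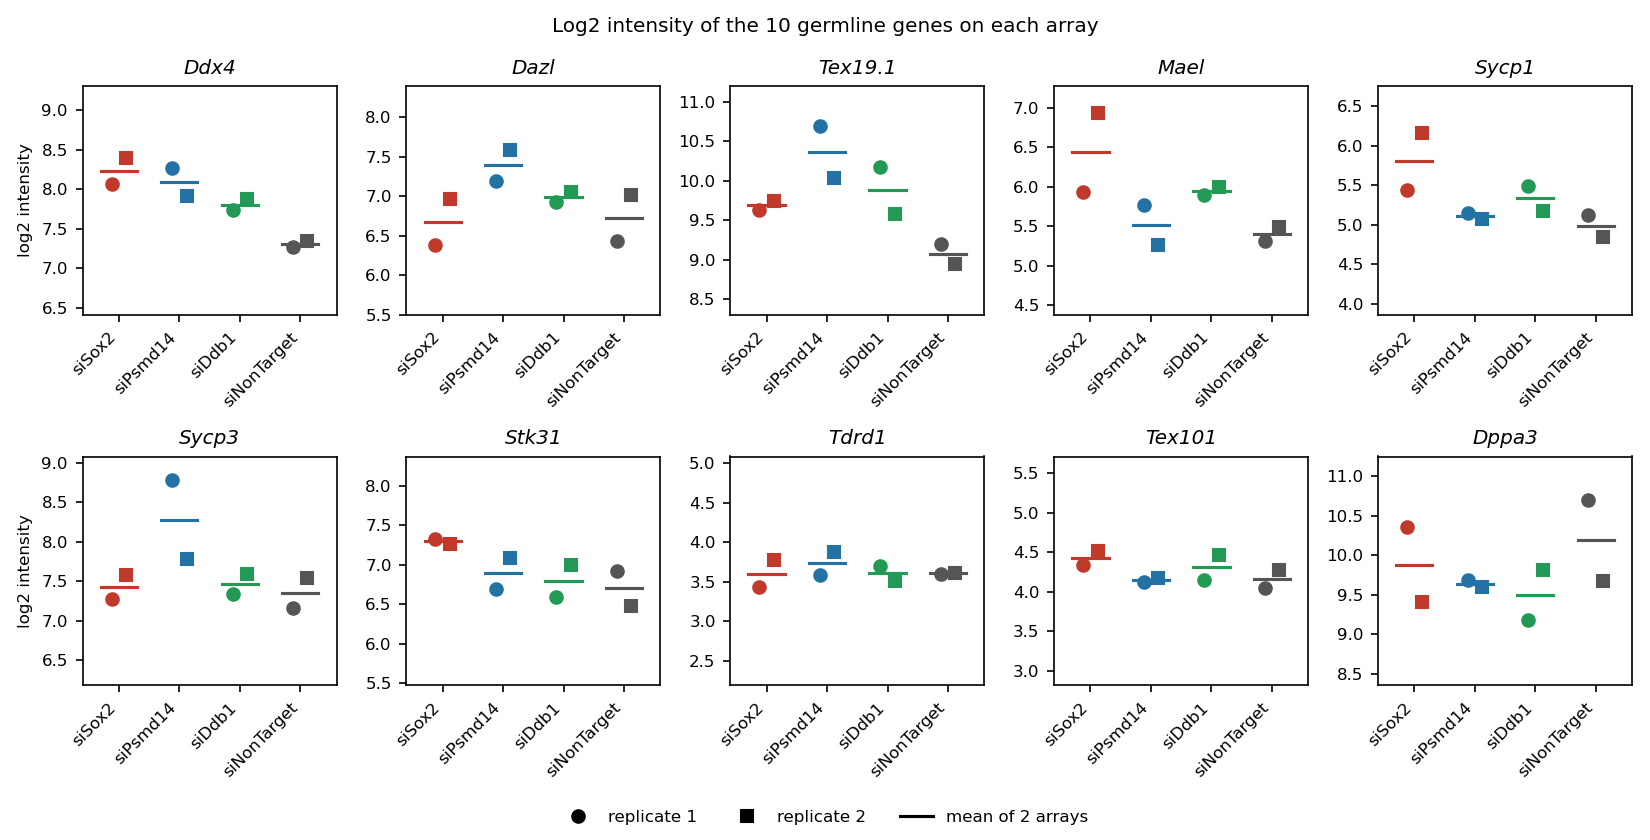
Log2 intensity (vertical axes, each with the same span) of the 10 germline genes on each array, with siSox2, siPsmd14, siDdb1 and siNonTarget from left to right. Circles are replicate 1, squares replicate 2 and lines the mean of the 2 arrays. Ddx4 and Tex19.1 lie above both siNonTarget arrays on all 6 knockdown arrays, and Dppa3 spreads widely within siSox2 and siNonTarget.

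Ddx4, also called Vasa, encodes a DEAD-box RNA helicase of the germ granules and is a widely used germ cell marker. It lies at chr13:112598333-112652633 on GRCm38.p6, and the window printed above, which holds both motifs, falls inside that span. Ddx4 stood at 8.06 and 8.39 in siSox2 cells, 8.27 and 7.91 in siPsmd14 cells, 7.73 and 7.88 in siDdb1 cells, and 7.27 and 7.35 in siNonTarget cells. Every knockdown array was above both control arrays, while the ranges of siSox2 and siPsmd14 overlapped. Against siNonTarget, Ddx4 rose by 0.92 in siSox2 cells (log2 fold change, SE 0.17, 95% interval 0.54 to 1.30, 1.89-fold, limma adjusted p = 0.0226). In siPsmd14 cells the log2 fold change was 0.78 (95% interval 0.41 to 1.16, 1.72-fold, limma adjusted p = 0.0637), and in siDdb1 cells 0.50 (0.12 to 0.88, 1.41-fold, limma adjusted p = 0.466). Ddx4 was also the 1 germline gene that passed the moderated F test for any difference among the 4 groups (limma adjusted p = 0.0459), where 3.96% of all probe sets passed. No knockdown differed from another past the threshold in Ddx4: the log2 difference was -0.14 for siPsmd14 against siSox2 (limma adjusted p = 0.777), -0.42 for siDdb1 against siSox2 (0.276) and 0.28 for siPsmd14 against siDdb1 (0.616). The siSox2 call for Ddx4 was lost without siSox2 replicate 2 or without either siNonTarget array. The fold change was then 0.75 without siSox2 replicate 2, 0.88 without siNonTarget replicate 1 and 0.96 without siNonTarget replicate 2. Each fit without an array leaves 1 array in that group. In siPsmd14 cells the fold change of Ddx4 was 0.96 without siPsmd14 replicate 2, the lower array, and 0.6 without siPsmd14 replicate 1.

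Tex19.1 encodes a protein of germ cells, placenta and pluripotent cells that is known to restrain retrotransposons. It lies at chr11:121146143-121148314. Tex19.1 stood at 9.63 and 9.74 in siSox2 cells, 10.69 and 10.03 in siPsmd14 cells, 10.17 and 9.58 in siDdb1 cells, and 9.20 and 8.94 in siNonTarget cells. All 6 knockdown arrays were above both control arrays, and both siPsmd14 arrays were above both siSox2 arrays. Against siNonTarget, Tex19.1 rose by 1.29 in siPsmd14 cells (log2 fold change, SE 0.25, 95% interval 0.73 to 1.85, 2.44-fold, limma adjusted p = 0.0455). The log2 fold change was 0.61 in siSox2 cells (0.06 to 1.17, 1.53-fold, limma adjusted p = 0.275) and 0.81 in siDdb1 cells (0.25 to 1.36, 1.75-fold, limma adjusted p = 0.41). The knockdowns did not differ from each other past the threshold in Tex19.1, with log2 differences of 0.68 for siPsmd14 against siSox2 (limma adjusted p = 0.217), 0.19 for siDdb1 against siSox2 (0.828) and 0.48 for siPsmd14 against siDdb1 (0.544). The F test over the 4 groups gave an adjusted p of 0.0712 in limma. The siPsmd14 call for Tex19.1 was near the threshold: with array weights the limma adjusted p was 0.051, with the arrays of the compared groups alone 0.0514, and without siSox2 replicate 1 or replicate 2 it was 0.0635, each at a fold change of 1.29. It was 0.96 without siPsmd14 replicate 1 (limma adjusted p = 0.228), 1.42 without siNonTarget replicate 1 (0.187) and 1.16 without siNonTarget replicate 2 (0.283).

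Tex19.2, a close paralog of Tex19.1 at chr11:121116215-121118677, is no member of the 10 but lies near it on the chromosome. Tex19.2 stood at 7.16 and 6.55 in siPsmd14 cells, against 5.32 and 5.58 in siNonTarget cells, and rose by 1.40 (log2 fold change, limma adjusted p = 0.0188). In siSox2 cells its log2 fold change was -0.11 (limma adjusted p = 0.881). In siDdb1 cells Tex19.2 stood at 5.96 and 6.03 (0.54, limma adjusted p = 0.54). Both paralogs were therefore higher on both siPsmd14 arrays, and on both siDdb1 arrays, than on both control arrays. Whether one transcript hybridises to the other's probe set was not tested.

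Mael, Stk31 and Tdrd1 belong with the piRNA pathway and the germ granules. Mael encodes Maelstrom, needed for retrotransposon silencing in spermatocytes, and lies at chr1:166201385-166238744. Mael stood at 5.94 and 6.94 in siSox2 cells, 5.78 and 5.27 in siPsmd14 cells, 5.89 and 5.99 in siDdb1 cells, and 5.32 and 5.49 in siNonTarget cells. Both siSox2 arrays and both siDdb1 arrays were above both control arrays, and the siSox2 arrays lay 1 log2 unit apart. Against siNonTarget, Mael had a log2 fold change of 1.04 in siSox2 cells (SE 0.29, 95% interval 0.38 to 1.69, 2.05-fold, limma adjusted p = 0.113), 0.12 in siPsmd14 cells (0.908) and 0.54 in siDdb1 cells (0.706). The siSox2 value depended on the array kept: without siSox2 replicate 1, the lower array, it was 1.54 and without siSox2 replicate 2 it was 0.54. Either fit leaves 1 array in the group, so no p-value is given for it. Against siSox2, Mael was at -0.92 in siPsmd14 cells (limma adjusted p = 0.151), and between -1.42 and -0.42 over the left-out arrays.

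Stk31, a kinase-like protein of the testis with a Tudor domain, lies at chr6:49395506-49469506. Stk31 stood at 7.33 and 7.27 in siSox2 cells, 6.70 and 7.09 in siPsmd14 cells, 6.59 and 7.0 in siDdb1 cells, and 6.92 and 6.49 in siNonTarget cells. Both siSox2 arrays were above the other 6, which overlapped among themselves. The log2 fold change of Stk31 against siNonTarget was 0.60 in siSox2 cells (SE 0.2, 95% interval 0.14 to 1.05, 1.51-fold, limma adjusted p = 0.191), 0.19 in siPsmd14 cells (0.741) and 0.10 in siDdb1 cells (0.954). Its second probe set gave 0.34 in siSox2 cells (limma adjusted p = 0.514), 0.01 in siPsmd14 cells (0.993) and -0.23 in siDdb1 cells (0.86), so the sign for siDdb1 differed between the probe sets. Tdrd1, a Tudor protein of the germ granules that binds Piwi proteins and lies at chr19:56826171-56870012, showed no separation. Tdrd1 stood at 3.43 and 3.77 in siSox2 cells, 3.58 and 3.88 in siPsmd14 cells, 3.71 and 3.51 in siDdb1 cells, and 3.6 and 3.61 in siNonTarget cells, all under the array medians. Its log2 fold change in siSox2 cells was 0.00 (95% interval -0.37 to 0.36), and no knockdown passed the test.

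Sycp1 and Sycp3 build the synaptonemal complex. Sycp1 encodes the transverse filament that bridges paired chromosomes and lies at chr3:102818499-102936100. Sycp1 stood at 5.44 and 6.16 in siSox2 cells, 5.15 and 5.07 in siPsmd14 cells, 5.49 and 5.17 in siDdb1 cells, and 5.12 and 4.84 in siNonTarget cells. As with Mael, siSox2 replicate 2 was the highest of the 8 arrays. Against siNonTarget, Sycp1 had a log2 fold change of 0.82 in siSox2 cells (SE 0.23, 95% interval 0.31 to 1.34, 1.77-fold, limma adjusted p = 0.105), 0.13 in siPsmd14 cells (0.859) and 0.35 in siDdb1 cells (0.773). Without siSox2 replicate 1, the lower array, the siSox2 value for Sycp1 was 1.18, and without siSox2 replicate 2 it was 0.47. Either fit leaves 1 array in the group. Against siSox2, Sycp1 was at -0.69 in siPsmd14 cells (limma adjusted p = 0.165), and between -1.05 and -0.33 over the left-out arrays.

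Sycp3 encodes a protein of the chromosome axes and lies at chr10:88459587-88473236. Sycp3 stood at 7.27 and 7.59 in siSox2 cells, 8.78 and 7.78 in siPsmd14 cells, 7.34 and 7.59 in siDdb1 cells, and 7.16 and 7.54 in siNonTarget cells. Both siPsmd14 arrays were above the other 6 arrays, with siPsmd14 replicate 1 well above siPsmd14 replicate 2. The log2 fold change of Sycp3 was 0.93 in siPsmd14 cells (SE 0.29, 95% interval 0.27 to 1.59, 1.9-fold, limma adjusted p = 0.179), 0.08 in siSox2 cells (0.947) and 0.12 in siDdb1 cells (0.962). Without siPsmd14 replicate 2, the lower array, the siPsmd14 value was 1.43, and without siPsmd14 replicate 1 it was 0.43. Either fit leaves 1 array in the group. The siPsmd14 value of Sycp3 stood 0.85 above siSox2 (limma adjusted p = 0.189) and 0.81 above siDdb1 (0.34). Without siPsmd14 replicate 2 these differences were 1.35 and 1.31, and over all left-out arrays their lowest values were 0.35 and 0.31. The 2 synaptonemal genes were thus highest in different knockdowns, and with all 8 arrays neither passed the test in any comparison.

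Dazl encodes an RNA-binding protein that controls the translation of germ cell mRNAs, and lies at chr17:50279393-50293620. Dazl stood at 6.39 and 6.97 in siSox2 cells, 7.19 and 7.59 in siPsmd14 cells, 6.93 and 7.06 in siDdb1 cells, and 6.44 and 7.01 in siNonTarget cells. Both siPsmd14 arrays were above the other 6 arrays. Dazl had a log2 fold change of 0.67 in siPsmd14 cells (SE 0.24, 95% interval 0.11 to 1.22, 1.59-fold, limma adjusted p = 0.248), -0.05 in siSox2 cells (0.963) and 0.27 in siDdb1 cells (0.861). Against siSox2, the siPsmd14 value of Dazl stood at 0.71 (limma adjusted p = 0.185). Its 2 probe sets moved together over the 8 arrays (Pearson r 0.989), as did those of Stk31 (0.903).

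Tex101, a surface glycoprotein of germ cells at chr7:24668012-24672050, stood at 4.33 and 4.51 in siSox2 cells, 4.12 and 4.17 in siPsmd14 cells, 4.15 and 4.47 in siDdb1 cells, and 4.05 and 4.28 in siNonTarget cells. All these values were under the array medians. The log2 fold change of Tex101 in siSox2 cells was 0.26 (95% interval -0.08 to 0.61, limma adjusted p = 0.488), and the other knockdowns did not pass either. Dppa3, also called Stella, marks early germ cells, protects the maternal genome after fertilisation and varies from cell to cell in embryonic stem cell cultures. It lies at chr6:122626424-122630271. Dppa3 stood at 10.35 and 9.40 in siSox2 cells, 9.69 and 9.59 in siPsmd14 cells, 9.18 and 9.81 in siDdb1 cells, and 10.70 and 9.67 in siNonTarget cells. It was the 1 gene of the 10 whose fold change was below 0 in all 3 knockdowns, but the siNonTarget arrays themselves lay about 1 log2 unit apart. The log2 fold change of Dppa3 was -0.31 in siSox2 cells (SE 0.38, 95% interval -1.17 to 0.55), -0.55 in siPsmd14 cells and -0.69 in siDdb1 cells (-1.55 to 0.17, limma adjusted p = 0.709). In bulk RNA such values cannot tell fewer expressing cells from less RNA per cell, and this holds for all the genes here.

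**Figure D2:**
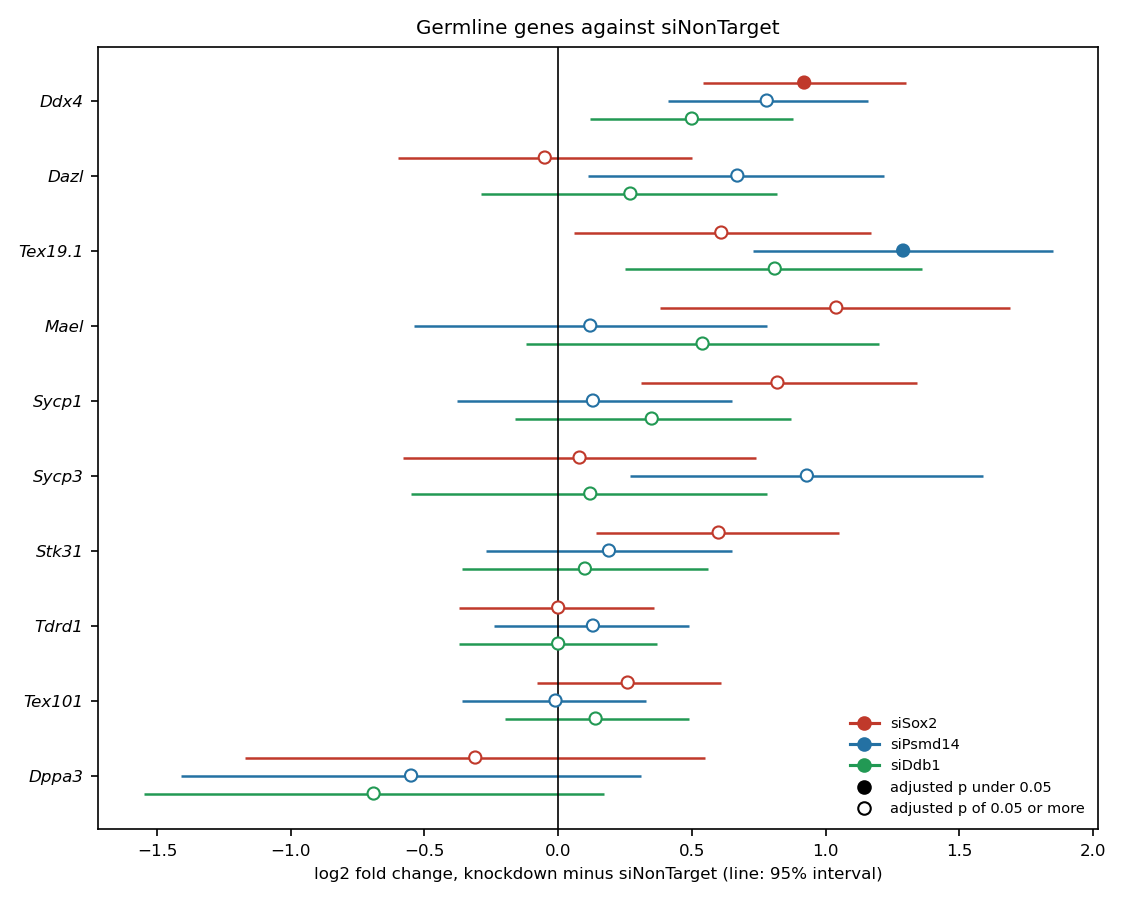
Log2 fold change against siNonTarget (horizontal axis) of the 10 germline genes in siSox2, siPsmd14 and siDdb1 cells, with 95% intervals from the limma model over 8 arrays. Filled points passed the adjusted p of 0.05: Ddx4 in siSox2 cells at 0.92 and Tex19.1 in siPsmd14 cells at 1.29.

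By sign, 7 of 10 genes had a fold change above 0 in siSox2 cells (median 0.43), 8 in siPsmd14 cells (median 0.16) and 9 in siDdb1 cells (median 0.21). Over all 18193 genes, 44.8% had a fold change above 0 in siSox2 cells (median -0.03), 47.4% in siPsmd14 cells (median -0.01) and 46.8% in siDdb1 cells (median -0.01). Both siSox2 arrays lay above both control arrays for 6 of 10 germline genes, against 23.3% of all genes. Both siPsmd14 arrays lay above both control arrays for 4 of 10, against 22.4% of all genes, and both siDdb1 arrays for 4 of 10, against 19.8%. For 0 of 10 germline genes both knockdown arrays lay below both control arrays, against 29.3% of all genes for siSox2, 24.1% for siPsmd14 and 22.3% for siDdb1. These fractions share the control arrays and are descriptions of the chosen genes. In the direct comparisons 0 of 10 genes passed for siPsmd14 against siSox2, where 2.79% of all probe sets passed, and the lowest limma adjusted p was 0.151. For siDdb1 against siSox2, 0 of 10 passed (background 3.08%, lowest limma adjusted p 0.276), and for siPsmd14 against siDdb1, 0 of 10 passed (background 0.413%, lowest limma adjusted p 0.34). By 1 probe set per gene, 361 of 18193 genes were higher and 373 lower in siPsmd14 than in siSox2 cells. The counts were 369 and 473 for siDdb1 against siSox2, and 83 and 24 for siPsmd14 against siDdb1. An unadjusted p under 0.05 was reached by 5, 2 and 1 of the 10 genes in these 3 comparisons, against 15.7%, 14.4% and 10.8% of all probe sets.

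Over the 8 arrays the germline genes did not vary as 1 group. Mael and Sycp1 followed each other closely (Pearson r 0.901), and Tex19.1 followed Sycp3 (0.706) and Ddx4 (0.678). Dazl and Dppa3 ran opposite to each other (-0.687). Of the 45 pairs, 27 had a correlation above 0. These correlations share the 8 arrays and their groups, and are given as descriptions.

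The genes closest in pattern to Ddx4 and Tex19.1 were sought among 2265 other genes with a mean log2 value of at least 5 and a range of at least 1. Closest to Ddx4 was Tagln, a smooth muscle actin-binding protein (Pearson r 0.998 and Spearman rho 1 over 8 arrays), then Vwa5a (r 0.975) and Anxa3, an annexin (r 0.973). Tagln stood at 11.08 and 11.74 in siSox2 cells, 11.55 and 10.85 in siPsmd14 cells, 10.33 and 10.66 in siDdb1 cells, and 9.44 and 9.64 in siNonTarget cells. Its log2 fold change was 1.87 in siSox2 cells, 1.66 in siPsmd14 cells and 0.96 in siDdb1 cells. The 8 arrays have the same order in Tagln as in Ddx4. Closest to Tex19.1 were Npnt, an extracellular matrix protein (r 0.984), Cd55, a complement regulator (r 0.983), and Perp, a protein of cell junctions (r 0.977). Perp stood at 11.41 and 10.37 in siPsmd14 cells, against 8.77 and 8.99 in siNonTarget cells, a log2 fold change of 2.0. In siPsmd14 cells Npnt was at 1.61 and Cd55 at 1.30. These 6 genes were chosen for their likeness on these arrays, so their fold changes are descriptions with no test. None of them is in the germline lists used here.

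**Figure D3:**
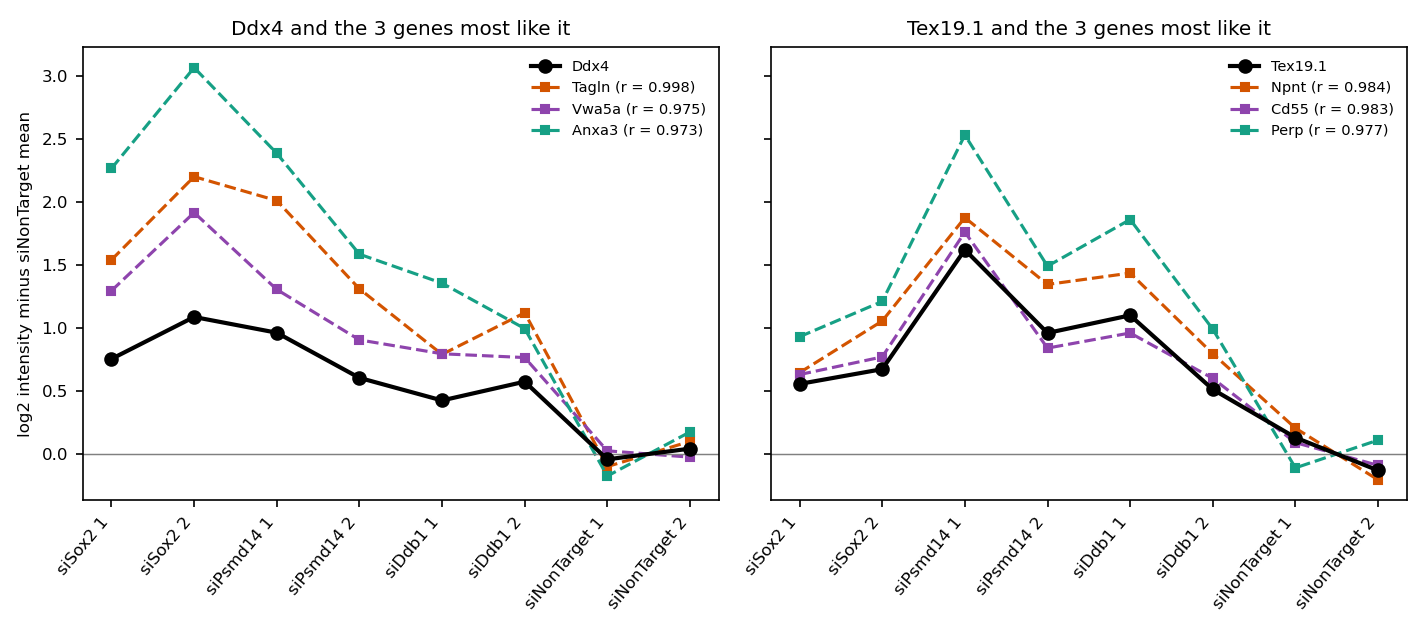
Log2 intensity minus the gene's mean over the 2 siNonTarget arrays (vertical axis) for Ddx4 and Tex19.1 and the 3 genes closest to each in pattern, with the arrays of siSox2, siPsmd14, siDdb1 and siNonTarget from left to right. Tagln has the same array order as Ddx4 (Spearman rho 1), and the siNonTarget arrays are the lowest for all 8 genes shown.

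Other genes of the germline were read from further gene lists. Beside every list count below stands the same background: 2.93% of all probe sets passed in siSox2 cells, 1.35% in siPsmd14 cells and 0.0266% in siDdb1 cells. By 1 probe set per gene, as the lists are counted, 512 of 18193 genes rose and 266 fell in siSox2 cells. In siPsmd14 cells 309 rose and 34 fell. With so few calls in siDdb1 cells, a list with 0 calls there says little. Of 13 measured genes of primordial germ cell specification, 1 rose and 2 fell in siSox2 cells, and 0 passed in siPsmd14 and siDdb1 cells. Tfap2c, a transcription factor of germ cell and trophectoderm formation, rose in siSox2 cells, at 10.53 and 10.57 against 9.76 and 9.64 in siNonTarget cells (log2 fold change 0.85, limma adjusted p = 0.0104). Kit, the receptor that germ cells need to migrate and survive, fell in siSox2 cells, at 7.51 and 6.77 against 8.77 and 8.53 in siNonTarget cells (-1.51, limma adjusted p = 0.0189). A second Kit probe set, at 3.80 and 3.93 in siNonTarget cells, was at -0.29 (limma adjusted p = 0.406). Ifitm3, a membrane protein of early germ cells, fell as well, at 11.67 and 11.36 against 12.35 and 12.58 in siNonTarget cells (-0.95, limma adjusted p = 0.0174). The smallest p was that of Dnd1, an RNA-binding protein of germ cell survival, in siPsmd14 cells (-0.71, limma adjusted p = 0.0853), and that of Prdm14, a germ cell and pluripotency factor, in siDdb1 cells (-0.89, limma adjusted p = 0.363). Of 28 measured meiotic genes, 2 fell in siSox2 cells and 0 rose, and 0 passed in siPsmd14 and siDdb1 cells. The 2 were Hsf2bp, a factor of meiotic recombination (log2 fold change -1.18, limma adjusted p = 0.0255), and Smc1b, a meiotic cohesin (-0.65, limma adjusted p = 0.0493). A second Hsf2bp probe set was at -0.76 (limma adjusted p = 0.146). The Smc1b call was lost in 6 of 12 settings and without any 1 of 6 of the 8 arrays, all but the siPsmd14 arrays. Smc1b also had the smallest p of the list in siPsmd14 cells (-0.63, limma adjusted p = 0.078). The gene with the smallest p among them in siDdb1 cells was Tex15, a testis protein of meiosis and transposon silencing. Tex15 stood at 7.99 and 7.28 in siDdb1 cells, against 6.32 and 6.29 in siNonTarget cells (1.33, limma adjusted p = 0.15).

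Of 18 measured genes of the piRNA pathway and germ granules, 1 rose and 2 fell in siSox2 cells, and 2 rose and 1 fell in siPsmd14 cells, while 0 passed in siDdb1 cells. Tdrd7, a Tudor protein of germ granules, stood at 5.14 and 5.77 in siSox2 cells and 5.32 and 5.29 in siPsmd14 cells, against 4.16 and 4.02 in siNonTarget cells. It rose in siSox2 cells (log2 fold change 1.37, limma adjusted p = 0.00767) and in siPsmd14 cells (1.21, limma adjusted p = 0.0231), but its second probe set was at -0.07 in siSox2 cells. Gtsf1, a zinc finger partner of Piwi proteins, fell in siSox2 cells (-0.88, limma adjusted p = 0.0146) and in siPsmd14 cells (-0.85, limma adjusted p = 0.0288). Its second probe set was at -0.48 in siSox2 cells (limma adjusted p = 0.156), which ends that call, and at -0.76 in siPsmd14 cells (0.0495). Tdrd12, a Tudor protein needed for piRNA production, fell in siSox2 cells (-1.23, limma adjusted p = 0.0181). Tex19.2, described above, was the other gene that rose in siPsmd14 cells. Rnf17, a Tudor protein of spermatids, had the smallest p in siDdb1 cells (0.46, limma adjusted p = 0.441).

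Of 22 measured genes of germline gene repression and DNA methylation, 0 passed in siSox2 cells and 0 in siDdb1 cells, and 1 rose in siPsmd14 cells. It was E2f6, the repressor whose complexes are named above. E2f6 stood at 9.79 and 8.96 in siPsmd14 cells, against 8.18 and 7.98 in siNonTarget cells (log2 fold change 1.29, limma adjusted p = 0.0402). Its second probe set was at 0.69 (limma adjusted p = 0.0587). The E2f6 call was lost in 3 of 12 settings and without any 1 of 7 of the 8 arrays, siPsmd14 replicate 2 being the exception. The value was 1.70 without siPsmd14 replicate 2, the lower array, and 0.88 without siPsmd14 replicate 1. Tet2, a DNA demethylation enzyme, had the smallest p of the list in siSox2 cells (-0.70, limma adjusted p = 0.155) and in siDdb1 cells (-0.65, limma adjusted p = 0.469). In siSox2 cells E2f6 was at 0.48 and in siDdb1 cells at 0.18. Of 15 other testis-specific genes, 1 fell in siSox2 cells, Tex14, a protein of germ cell bridges (-1.0, limma adjusted p = 0.0437), and 0 passed in the other knockdowns. The Tex14 call was lost in 3 of 12 settings and without any 1 of 6 of the 8 arrays, all but the siDdb1 arrays. The smallest p was that of Ldhc, a testis lactate dehydrogenase, in siPsmd14 cells (-0.42, limma adjusted p = 0.166), and that of Tktl1 in siDdb1 cells (0.52, limma adjusted p = 0.573). Of 6 measured genes of the 2-cell-like state, a rare state of embryonic stem cells, 0 passed in any knockdown. Their median fold change was 0.51 in siSox2 cells, 0.64 in siPsmd14 cells and 1.24 in siDdb1 cells. Usp17la of this list stood at 8.47 and 11.03 in siSox2 cells, 9.48 and 10.09 in siPsmd14 cells, 10.87 and 9.06 in siDdb1 cells, and 6.69 and 7.60 in siNonTarget cells, with the lowest limma adjusted p at 0.142.

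The median log2 fold change in siSox2 cells was -0.33 for germ cell specification, 0.06 for meiosis, -0.09 for the piRNA genes, -0.13 for the repressors and -0.06 for the testis-specific genes. In siPsmd14 cells the same medians were -0.29, 0.00, 0.07, -0.17 and -0.01, and in siDdb1 cells -0.02, 0.07, 0.10, -0.02 and -0.01.

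Some markers of other cell types moved in the same knockdowns. Of 11 trophectoderm markers, 8 rose in siSox2 cells (median 2.33) and 3 in siPsmd14 cells (median 0.80), and 0 passed in siDdb1 cells (median 0.54). Plac1 had a log2 fold change of 6.23, Krt7 of 4.47 and Ascl2 of 3.50 in siSox2 cells. In siPsmd14 cells the 3 were Krt8 (2.63), Krt18 (2.37) and Krt7 (1.94), all of them keratins. The other markers of the list did not pass there by their representative probe sets. They were Plac1 (1.04), Gata3 (0.84), Eomes (0.80), Cdx2 (0.37), Elf5 (0.35), Ascl2 (0.34), Hand1 (-0.02) and Tfap2c (-0.21). A second Eomes probe set did pass in siPsmd14 cells (0.99, limma adjusted p = 0.0306). In siDdb1 cells Eomes had the smallest p (1.41, limma adjusted p = 0.0853). Of the 12 embryonic stem cell markers, 11 had a fold change below 0 in siSox2 cells (median -0.37), 12 in siPsmd14 cells (median -0.44) and 12 in siDdb1 cells (median -0.21). Over all genes, 44.8%, 47.4% and 46.8% had a fold change above 0 in these knockdowns, in the same order. Esrrb fell in siSox2 cells (-0.58, limma adjusted p = 0.0399), a call lost without any 1 of 6 of the 8 arrays, all but the siPsmd14 arrays. Other Esrrb probe sets were at -0.12 (limma adjusted p = 0.816) and -0.89 (0.248) in siSox2 cells. Klf4 was at -0.79 in siSox2 cells by its representative probe set (limma adjusted p = 0.066), and its second probe set passed at -0.77 (0.0443). None of the 12 markers passed in the other knockdowns, with Fgf4 at -0.89 in siPsmd14 cells (limma adjusted p = 0.0826) and Esrrb at -0.49 in siDdb1 cells (0.287). Of the 12 fibroblast markers, Tagln rose (1.87) and Thy1 fell (-1.06) in siSox2 cells, and Tagln (1.66) and S100a4 (1.18) rose in siPsmd14 cells. The rest of the 12 did not pass in these knockdowns. Twist1 had the smallest p of the 12 in siDdb1 cells (0.66, limma adjusted p = 0.229). Of the 9 gonadal somatic markers, Cyp11a1 fell in siSox2 cells (-1.59, limma adjusted p = 0.0139) and 0 passed otherwise, with Cyp17a1 at -0.41 in siPsmd14 cells and Rhox5 at -0.31 in siDdb1 cells. The other, dimmer probe sets of Cyp11a1 went the other way in siSox2 cells, at 0.21 (limma adjusted p = 0.685) and 0.31 (0.325). Of the 16 genes of these and the other germline lists named here as called in siSox2 cells, 3 kept the call without siNonTarget replicate 2, namely Plac1, Krt7 and Ascl2. Of the 9 so named in siPsmd14 cells, 0 kept it without siPsmd14 replicate 1 or without either siNonTarget array. The part of these marker changes in the germline values was not tested. The log2 difference between the 3′ and 5′ probe sets of Actb was 0.346 on siPsmd14 replicate 1, the array with the highest Tex19.1 and Sycp3, and 0.0962 to 0.214 on the other 7 arrays. Signal for 18S rRNA, in log2, was lowest of all 8 arrays in siPsmd14 replicate 1 (10.42) and highest in siPsmd14 replicate 2 (12.51). The part of these readings in the germline values was not tested either.

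**Figure D4:**
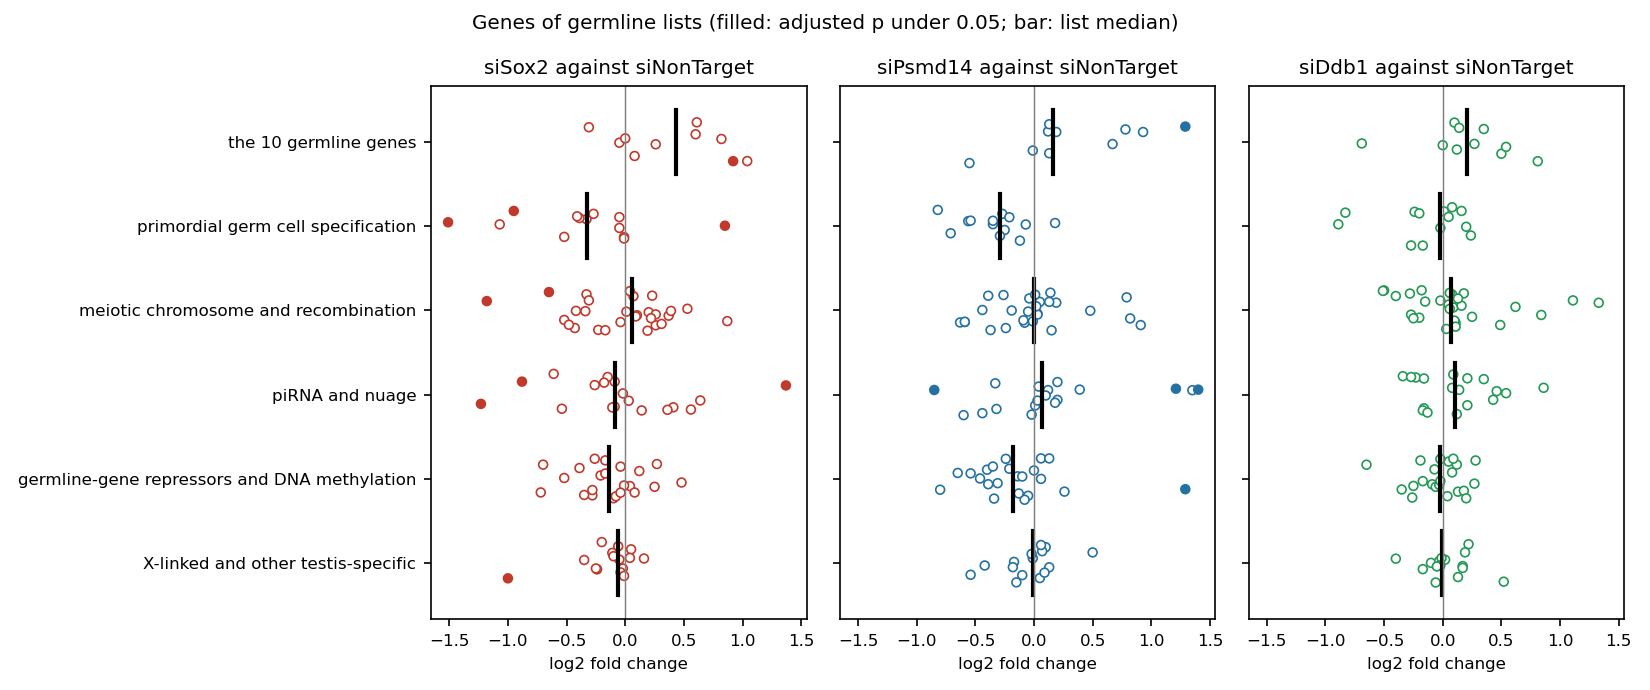
Log2 fold change against siNonTarget (horizontal axis) of the 10 germline genes and of each measured gene of 5 further germline lists, with siSox2, siPsmd14 and siDdb1 panels from left to right. Filled points passed the adjusted p of 0.05 and bars mark list medians. In the siSox2 panel the 10 genes have a median of 0.43, and filled points lie on both sides of 0.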

How the data were processed

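RNA of NG4 mouse embryonic stem cells was profiled on 8 Affymetrix arrays, grouped by their titles into siSox2, siPsmd14, siDdb1 and siNonTarget. The deposited intensity values were RMA values, according to the submitters' processing notes, with version and settings not given in the sources used here. RMA in its usual form equalises the arrays, so a change is relative to most probe sets, and the number of arrays limits the precision. Detection calls were not used here.

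Of 45101 probe sets, 64 controls were left out. Of the 45037 tested, 34945 had 1 gene symbol in GEO's platform annotation, 932 several and 9160 none. The values were taken to log2 and fitted in 1 limma model (limma 3.58.1, R 4.3.3, lmFit and eBayes without trend, 9.02 total degrees of freedom), with the group as the only term and Benjamini-Hochberg adjustment over the 45037 probe sets. Knockdowns were set against siNonTarget and against each other, and an F test covered the 4 groups. Of these steps, only the limma comparisons against siNonTarget were checked on simulated data.

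The 10 genes and the other lists were chosen with earlier results of these data known. All 10 are named, with the 3 targeted genes. Each other list gives, against siNonTarget, up to 3 genes past the threshold with the smallest p, or the 1 with the smallest p where none passed. The lists' genes in the direct comparisons are not reported here. The likeness search took 3 genes for each germline gene that passed. Promoter windows and positions came from RefSeq tables of GRCm38.p6. Alternatives covered 12 settings and 8 left-out arrays.

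Replicate numbers were not used as pairs in the main fit. The correlation of the replicate differences between groups lay between -0.217 and 0.242, highest for siSox2 with siNonTarget. The labels do not say whether same-numbered arrays belong together.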

Additional observations from a re-analysis of the deposited data

How the results depend on the processing

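Of 1176 recomputed fold changes of the 10 genes over 12 settings and 8 left-out arrays, 1106 kept their direction and their side of the threshold, 14 lost a call, 9 gained one and 47 changed sign. Only Ddx4 in siSox2 cells and Tex19.1 in siPsmd14 cells had a call to lose, so most of these values had none. Over the 12 settings Ddx4 lost its call in 2 and Tex19.1 in 4. In siSox2 against siNonTarget the count of genes called was 0 with 16 intensity units added before log2 and 0 at an adjusted p of 0.01, against 1. In siPsmd14 against siNonTarget it was 0 with array weights, with only the compared arrays, with 16 units added and at 0.01, against 1. The F test called 0 with quantile normalization, 0 with 16 units added, 0 at 0.01 and 2 with trend and robust, against 1. With 16 units added, Ddx4 in siSox2 cells was at 0.86 (limma adjusted p = 0.0566) and Tex19.1 in siPsmd14 cells at 1.27 (0.111). With the replicate number as a block, siPsmd14 against siSox2 called 1 gene, Dazl (0.71, limma adjusted p = 0.0489), against 0. Whether the numbers stand for pairs is not known. The block moved the siDdb1 count over all probe sets to 2, against 12, and changed no other count of the 10 genes.

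Leaving out 1 array leaves its group with 1 array, assumed to vary like the others. The counts of genes called then lay between 0 and 3 for siSox2, for siPsmd14 and for the F test, 0 and 2 for siPsmd14 against siSox2, 0 and 1 for siPsmd14 against siDdb1, and stayed at 0 for siDdb1 and for siDdb1 against siSox2. Over all probe sets, left-out arrays gave 153 to 1440 calls for siSox2, 17 to 1295 for siPsmd14, 0 to 146 for siDdb1, 325 to 1543 for siPsmd14 against siSox2, 319 to 1486 for siDdb1 against siSox2 and 11 to 884 for siPsmd14 against siDdb1. The 12 settings gave 375 to 1724, 86 to 663, 0 to 18, 331 to 1299, 383 to 1685 and 11 to 260 in the same order. The cause was not tested.

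None of the sign changes touched a called value. Tdrd1 moved to 0.01, 0.02 and 0 in siSox2 cells with medians subtracted, quantile normalization and 16 units added, to -0.01 and 0 in siDdb1 cells, and to -0.02 for siDdb1 against siSox2 under the first pair of settings. With left-out arrays the ranges that crossed 0 were, in siSox2 cells, Dazl -0.34 to 0.24, Sycp3 -0.11 to 0.27, Tdrd1 -0.18 to 0.17 and Dppa3 -0.82 to 0.2. In siPsmd14 cells they were Mael -0.14 to 0.37, Sycp1 -0.01 to 0.27, Stk31 -0.02 to 0.41, Tdrd1 -0.02 to 0.28 and Tex101 -0.13 to 0.1. In siDdb1 cells they were Dazl -0.02 to 0.55, Sycp3 -0.08 to 0.31, Stk31 -0.12 to 0.31, Tdrd1 -0.1 to 0.1 and Tex101 -0.01 to 0.3. For siPsmd14 against siSox2 they were Ddx4 -0.32 to 0.04, Tdrd1 -0.04 to 0.3 and Dppa3 -0.71 to 0.24. For siDdb1 against siSox2 they were Tex19.1 -0.1 to 0.49, Mael -1 to 0, Sycp3 -0.12 to 0.19, Tdrd1 -0.17 to 0.18, Tex101 -0.28 to 0.04 and Dppa3 -0.86 to 0.09. For siPsmd14 against siDdb1 they were Stk31 -0.11 to 0.3, Tdrd1 -0.03 to 0.27 and Dppa3 -0.17 to 0.46.

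Of the 16 named genes of the other lists called in siSox2 cells, 9 kept the call with 16 units added, 6 at 0.01, and 3, 4 and 5 without siNonTarget replicate 2, siSox2 replicate 2 and siNonTarget replicate 1. Of the 9 called in siPsmd14 cells, 1 kept it with 16 units added, 1 at 0.01 and 0 without siPsmd14 replicate 1 or either siNonTarget array.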
